A study of Mus musculus with 9 samples.

Results

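The genes examined here were 10 mesenchymal and epithelial-mesenchymal transition (EMT) factors, namely Foxc1, Cd248, Twist1, Snai1, Snai2, Zeb1, Zeb2, Prrx1, Pdgfrb and Acta2. Their members were every array probe annotated to one of these symbols, whatever its signal, which gave 27 of 45281 probes and 10 of the 19057 gene symbols on the array. Cells of mNS-5, a clonal line of mouse neural stem cells (NSCs) derived from embryonic stem cells, carried a lentiviral shRNA against Med12 (MED12 KD) or a non-silencing shRNA (NS control), and they were compared to ask which transcripts depend on Med12. Both groups were grown on gelatin with FGF-2 and EGF, selected with puromycin and harvested 5.5 days after infection. Illumina MouseWG-6 arrays were run on 6 Med12 knockdown and 3 NS control samples in 3 numbered sets, each with 2 knockdown arrays and 1 control array. The study describes 3 independent cultures per group and the sources used here do not say how the second knockdown array of a set was made, so the spread among the 6 knockdown arrays may be partly technical. All cells came from 1 clonal line and the methods name 1 hairpin against Med12, which limits both groups as a model.

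EMT is the switch by which epithelial cells loosen their junctions and take on a migratory, mesenchymal state. Snai1, Snai2, Zeb1 and Zeb2 are zinc finger repressors that bind E-box sequences in epithelial genes such as Cdh1, and Twist1 is a basic helix-loop-helix factor that acts beside them. Prrx1 is a homeobox factor of limb and craniofacial mesenchyme, and Foxc1 is a forkhead factor needed for meninges, eye and skeletal development. Cd248 (endosialin) is a surface glycoprotein of pericytes and activated fibroblasts, Pdgfrb is the receptor that recruits pericytes to vessels, and Acta2 is the alpha actin of smooth muscle and myofibroblasts. Several of these repressors, Zeb1 and Zeb2 among them, also serve in neural progenitors and the neural crest.

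Of the 10 genes, Cd248 and Foxc1 rose in Med12 knockdown cells, by 3.54-fold and 2.21-fold. The Foxc1 call was lost under 8 of 25 alternative settings and that of Cd248 under 1. The Cd248 rise rests on 1 of its 2 probes. Twist1 and Zeb1 were measured on all 9 arrays with overlapping groups and narrow intervals around no change. The EMT repressors Snai1 and Snai2 were at or near background, as was Pdgfrb, and Acta2 was high on both knockdown arrays of set 1 without a difference between the groups that passed the test. Values are background-subtracted, quantile-normalised intensities on a linear scale. A probe was counted as above background where it exceeded 16.9, the limit set from the values below 0. Fold changes are Med12 knockdown over NS control from limma on log2 intensity, with values below 16 set to 16, and passing means a Benjamini-Hochberg adjusted p of 0.05 or less over the 20026 probes that exceeded that limit on 3 or more arrays.

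Med12 itself checked the labels. Its probe read 121.8, 121.0 and 175.9 on the first knockdown arrays of sets 1 to 3 and 165.0, 112.0 and 126.0 on the second, against 355.0, 355.7 and 266.7 on the NS arrays. Every knockdown array was below every control array, with a log2 fold change of -1.26 (SE 0.19, limma adjusted p = 0.00447). Both knockdown arrays of set 1 were above the other 7 arrays for 10.9% of tested probes, so the fold changes of Foxc1, Cd248 and Acta2 are also given without them. The same share was not counted for the other sets.

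Detection came before any comparison, because many of the probes carried no signal. Of the 27 probes, 8 were above the limit on all 9 arrays and 12 were kept for testing, and these covered 8 genes. Of the 15 that were not kept, 9 were above the limit on no array, their highest value being 12.4, and 6 were above it on 1 or 2 arrays. Snai2 and Pdgfrb had no kept probe. For comparison, 41.1% of all probes on the array, and 36.7% of those with a single symbol, were above the limit on no array, and 43.6% of genes had no kept probe.

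**Figure D1:**
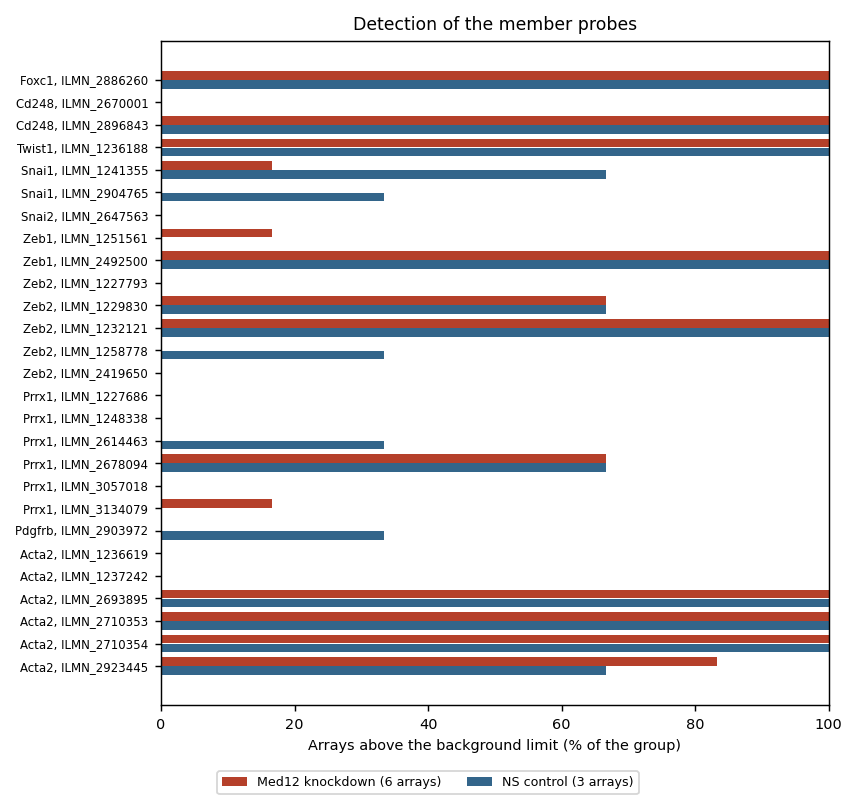
Share of arrays in each group on which each of the 27 member probes exceeded the background limit of 16.9, in percent of the 6 Med12 knockdown arrays (red, upper bar) and of the 3 NS control arrays (blue, lower bar). A probe with no bar was above the limit on no array, as for Snai2, and 8 probes reach 100% in both groups.

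Among the 12 kept probes, 2 were higher in Med12 knockdown cells, 0 were lower and 10 did not pass. Across all tested probes, 4.35% were higher and 2.85% lower by the same rule, while 2.19% were higher and 0.784% lower by at least 2-fold; both Cd248 and Foxc1 were higher by that much. At an unadjusted p under 0.05 the limma counts were also 2 higher and 0 lower. The median log2 fold change of the 12 was 0.26, beside -0.03 over all tested probes. Knockdown and control arrays did not overlap for 2 of the 12, again Cd248 and Foxc1, where 8.49% of all tested probes had every knockdown array above every control array and 8.05% every one below. Because 4 of the 12 probes read Acta2 and 2 read Zeb2, they are not 12 separate genes. All 4 Acta2 probes lay above the median of the 12, at log2 fold changes of 0.44 to 0.79. Without the knockdown arrays of set 1 these Acta2 values were -0.17 to 0.13.

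**Figure D2:**
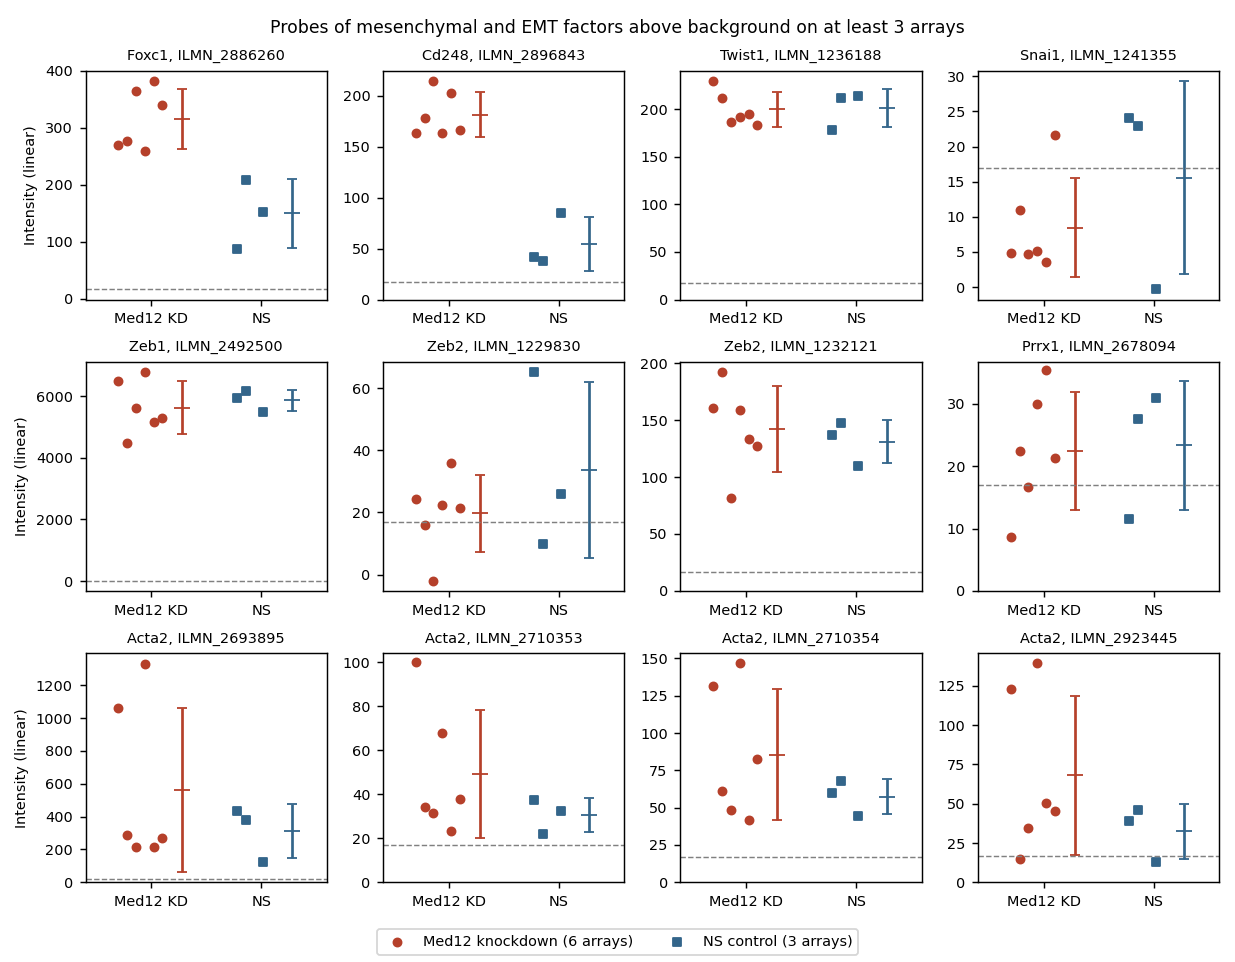
Intensity of the 12 kept probes on each array (linear axis, one panel per probe), with Med12 knockdown arrays as red circles left of the NS control arrays as blue squares, the mean and SD beside each group, and the limit of 16.9 as a dashed line. The groups are apart for Foxc1 and Cd248 and overlap in the other 10 panels.

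Foxc1 is read by 1 probe, ILMN_2886260, on chromosome 13. It gave 269.7, 276.2 and 365.3 on the first knockdown arrays of sets 1 to 3 and 260.0, 382.0 and 339.7 on the second, against 88.0, 208.3 and 152.8 on the NS arrays. The lowest knockdown array was above the highest control array, and the control of set 1 was the lowest of the 9. The means were 315 ± 53.3 in Med12 knockdown cells (SD, n = 6) and 149.7 ± 60.2 in NS control cells (SD, n = 3). The log2 fold change was 1.15 (SE 0.25, 95% interval 0.58 to 1.71), with a limma adjusted p of 0.0263. An exact two-sided permutation test over the 84 splits of the 9 arrays gave p = 0.0119, the smallest it can give. That test takes the 6 knockdown arrays as separate samples, although the study describes 3 independent cultures per group. With the 2 knockdown arrays of a set averaged, the limma adjusted p was 0.104 and did not pass. With the first or the second knockdown arrays alone it was 0.176 or 0.117. The Foxc1 call was also sensitive to single arrays. Without the NS array of set 1 the log2 fold change was 0.81 and the adjusted p 0.0701, without that of set 3 they were 1.20 and 0.0758, and without the second knockdown array of set 2 they were 1.09 and 0.0525. Without both knockdown arrays of set 1 they were 1.26 and 0.0487, and without its control array as well 0.92 and 0.0617.

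The Foxc1 promoter is shown because Foxc1 is the 1 member past the test for which RefSeq sequence was at hand (GRCm38.p6, from 250 bases before the annotated start to 50 bases after it), and that of Acta2, chosen for its uneven signal described below, is set beside it. Both are written 5′ to 3′ on the gene's strand. Capitals mark matches to TATANAA, searched on both strands as were CAGGTG, the E-box read by Snail and Zeb proteins, and the CArG box of serum response factor.
Foxc1, chr13:31806396-31806695, plus strand: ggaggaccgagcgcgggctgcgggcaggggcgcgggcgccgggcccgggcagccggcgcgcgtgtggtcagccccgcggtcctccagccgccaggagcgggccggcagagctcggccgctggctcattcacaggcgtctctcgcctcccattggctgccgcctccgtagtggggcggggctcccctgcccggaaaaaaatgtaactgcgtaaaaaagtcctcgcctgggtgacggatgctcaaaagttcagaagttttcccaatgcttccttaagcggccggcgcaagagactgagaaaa
Acta2, chr19:34255324-34255623, minus strand: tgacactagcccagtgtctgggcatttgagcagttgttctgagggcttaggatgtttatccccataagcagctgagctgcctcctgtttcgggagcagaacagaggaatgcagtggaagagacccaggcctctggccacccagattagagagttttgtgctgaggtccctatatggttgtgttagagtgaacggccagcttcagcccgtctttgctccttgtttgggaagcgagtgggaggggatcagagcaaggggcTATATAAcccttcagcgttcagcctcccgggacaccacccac
The Foxc1 window held no match to any of the 3 motifs. The Acta2 window held TATATAA, its first base at position 8 from the annotated start. It had no match to the CArG box in the strict form searched, CC, 6 bases of A or T only, and GG. The window does hold ccctatatgg and ccttgtttgg, each with a C or G among the middle bases. The strict search cannot match such forms, so it does not show that the Acta2 window lacks CArG-like sites. Of the 6 members with a RefSeq promoter, the Snai1 promoter was the 1 with a CAGGTG match, read as CACCTG on the gene's strand at position -126. Over all 32851 promoters of the same length, 20.2% held CAGGTG, 1.63% the CArG box and 11.3% TATANAA. A match is a description of the letters and says nothing of binding.

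Foxc2, the close relative of Foxc1, was near the limit, at 13.6 to 26.9 on the knockdown arrays and 7.5 to 48.2 on the control arrays, with a log2 fold change of -0.54 that did not pass (adjusted p = 0.319). The groups overlapped. Foxd1, a forkhead factor of stromal cells, was lower in Med12 knockdown cells, at 29.4 to 51.3 against 69.6 to 89.6 in NS control cells, with a log2 fold change of -0.86 (SE 0.18, adjusted p = 0.0237), although this call was lost under 10 of 25 alternatives, each single control array among them. The 3 genes whose brightest probe followed Foxc1 most closely over the 9 arrays were Sh3kbp1 (Pearson r = 0.974), Calr3 (r = 0.973) and Hs3st1 (r = 0.971). All 9 points share the group difference, so these values describe likeness and are no test. Hs3st1, a heparan sulfate sulfotransferase, read 242.8 to 514.4 on the knockdown arrays and 48.5 to 156.7 on the control arrays. Calr3, a calreticulin, read 1329 to 2693 and 290.6 to 972.7, also lowest on the control of set 1 within its group.

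Twist1 did not follow Foxc1. Its probe read 230.1, 212.4 and 186.8 on the first knockdown arrays and 191.6, 194.8 and 183.6 on the second, against 178.0, 211.9 and 214.2 on the NS arrays. The groups overlapped throughout, with a log2 fold change of -0.01 (95% interval -0.30 to 0.28, adjusted p = 0.973), so that a change of 2-fold lies outside the interval in either direction. Its relative Twist2 was above the limit on no array. Among the bHLH partners that Twist1 pairs with and the Id proteins that sequester them, 6 of 9 genes were tested and 0 passed, nor did any reach an unadjusted limma p under 0.05, at a median log2 fold change of -0.10 beside 0.00 over all 10757 genes by brightest probe. The partners Tcf4, Tcf12 and Tcf3 were at 0.20, 0.15 and -0.42, and the inhibitors Id1, Id2 and Id3 at -0.57, 0.10 and -0.30, none past the test.

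Snai1 had 2 probes, both close to background. ILMN_1241355 was above the limit on 1 of 6 knockdown arrays (21.7, the second array of set 3) and on 2 of 3 NS arrays (24.1 and 22.9). The other knockdown arrays lay between 3.5 and 11.0, and the remaining NS array was at -0.3. The log2 fold change of -0.30 (95% interval -0.68 to 0.08) did not pass (adjusted p = 0.331), and since 6 of the 9 values sit at the floor it is not a measure of how far the level differs. ILMN_2904765 was above the limit on 0 knockdown arrays and 1 NS array, at 29.5. Snai2 was read by 1 probe that stayed between -16.5 and 9.9 and was above the limit on no array, so no difference in Snai2 was detectable at this signal. Snai3, the third of the family, was above the limit on all arrays, at 84.9 to 154.8 in knockdown cells and 73.9 to 119.7 in NS control cells, and did not pass (log2 fold change 0.21, adjusted p = 0.597).

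Zeb1 was clearly present. Its probe ILMN_2492500 on chromosome 18 read 6474, 4468 and 5608 on the first knockdown arrays and 6769, 5152 and 5293 on the second, against 5927, 6162 and 5492 on the NS arrays. The groups overlapped, with means of 5628 ± 860 in Med12 knockdown cells (SD, n = 6) and 5860 ± 340 in NS control cells (SD, n = 3). The log2 fold change was -0.07 (95% interval -0.42 to 0.27, adjusted p = 0.823), which leaves a 2-fold change outside the interval. The second Zeb1 probe, ILMN_1251561, matches a separate cDNA and was above the limit on 1 knockdown array, at 17.4. The 2 probes of Zeb1 thus do not report the same signal.

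Zeb2 had 5 probes, of which 2 were kept. ILMN_1232121 gave 161.0, 192.2 and 82.0 on the first knockdown arrays and 158.4, 133.3 and 127.0 on the second, against 136.5, 147.0 and 110.0 on the NS arrays. All 3 control values lay within the knockdown range, and the log2 fold change was 0.08 (95% interval -0.46 to 0.62, adjusted p = 0.877). ILMN_1229830, designed to another cDNA, was above the limit on 4 of 6 knockdown arrays and 2 of 3 NS arrays, at -1.9 to 36.0 and 10.0 to 65.1, with a log2 fold change of -0.46 (95% interval -1.35 to 0.42). Of the other 3 probes, 2 were never above the limit and 1 was above it on a single NS array, at 20.5. The fold changes of the 2 kept probes differ in sign and neither passed.

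The corepressors through which Snail and Zeb factors act had 14 of 15 genes tested, with 0 higher and 1 lower at a median log2 fold change of -0.07. The lower gene was Eed, a subunit of Polycomb repressive complex 2, at 501.8 to 690.8 in knockdown cells and 903.9 to 983.0 in NS control cells. Its log2 fold change was -0.58 (adjusted p = 0.0398), a call lost under 15 of 25 alternatives, among them the mean of the probes of the gene (-0.26, adjusted p = 0.421). The epithelial genes that these factors repress had 28 genes on the array but 9 tested, of which 0 passed in either direction, at a median of -0.07. At an unadjusted limma p under 0.05 the epithelial counts were 0 higher and 1 lower, the junction gene Cldn7. Cdh1, which encodes E-cadherin, read 8.6 to 34.0 in knockdown cells and 2.6 to 61.6 in NS control cells, with a log2 fold change of -0.07. The other EMT and mesenchymal transcription factors had 15 of 27 genes tested, with 0 higher and 1 lower, Foxd1, at a median of 0.10. Over all genes by brightest probe, 5.41% were higher and 2.86% lower.

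Prrx1 had 6 probes, 1 of them kept. ILMN_2678094 gave 8.6, 22.5 and 16.7 on the first knockdown arrays and 30.0, 35.4 and 21.4 on the second, against 11.6, 27.6 and 30.9 on the NS arrays. It was above the limit on 4 of 6 knockdown arrays and 2 of 3 NS arrays, and the ranges overlapped. The log2 fold change was -0.07 (95% interval -0.73 to 0.58, adjusted p = 0.907). Of the other probes 3 were never above the limit and 2 were above it on 1 array each, at 22.7 on a knockdown array and 19.6 on an NS array.

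**Figure D3:**
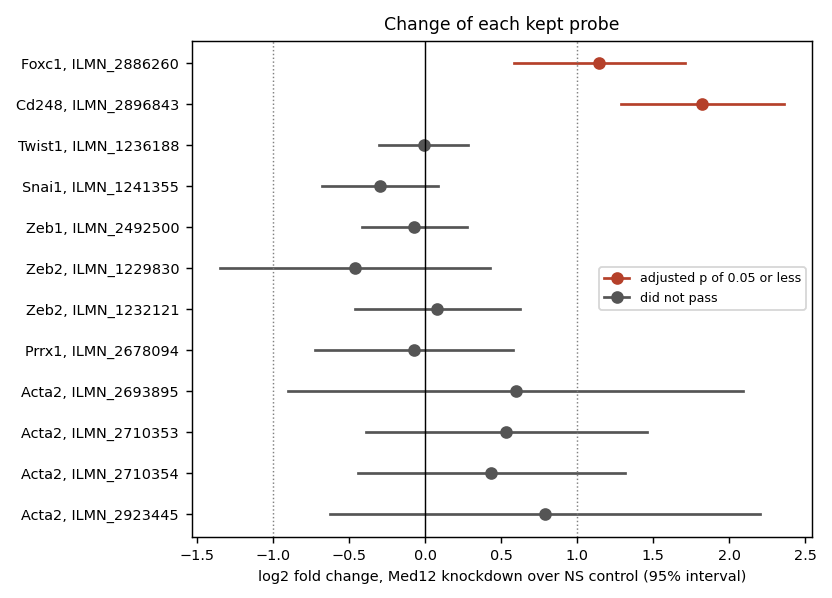
Log2 fold change of each of the 12 kept probes, Med12 knockdown over NS control, as a point with its 95% interval; red marks the probes that passed and dotted lines mark 2-fold. The intervals of Cd248 (1.29 to 2.36) and Foxc1 (0.58 to 1.71) lie above 0, and those of Twist1 and Zeb1 lie inside the 2-fold lines.

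Cd248 was the member with the largest fold change among the kept probes. ILMN_2896843 on chromosome 19 gave 163.1, 177.8 and 214.5 on the first knockdown arrays of sets 1 to 3 and 163.6, 202.1 and 166.6 on the second, against 41.7, 37.3 and 84.8 on the NS arrays. The 6 knockdown arrays lay close together and all above the controls, of which the set 3 array was the highest. The means were 181 ± 21.9 in Med12 knockdown cells (SD, n = 6) and 54.6 ± 26.2 in NS control cells (SD, n = 3). The log2 fold change was 1.82 (SE 0.24, 95% interval 1.29 to 2.36), with a limma adjusted p of 0.00267 and an exact two-sided permutation p of 0.0119, the smallest possible over 84 splits. Without both knockdown arrays of set 1 it was 1.89 (adjusted p = 0.0123), and the call held without any single array. The second Cd248 probe, ILMN_2670001, is annotated to the same transcript and was above the limit on no array, at -8.0 to 12.4, so the change rests on 1 of 2 probes.

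The genes that followed Cd248 most closely over the 9 arrays were Rgs14 (Pearson r = 0.986), Lrrc14b (r = 0.980) and Gpr146 (r = 0.975), with the same shared group difference. Rgs14, a regulator of G protein signalling, read 56.6 to 84.8 on the knockdown arrays and 9.2 to 25.3 on the control arrays, above the limit on 1 of the 3 controls. Gpr146, an orphan receptor, read 205.0 to 249.4 and 102.1 to 150.1. Like Cd248, all 3 genes were highest among the controls in set 3. Of the C-type lectin relatives of Cd248, 1 of 4 was tested and it was higher. This was Cd93, an endothelial receptor, at 631.4 to 915.6 in knockdown cells and 349.3 to 539.4 in NS control cells (log2 fold change 0.72, SE 0.18, adjusted p = 0.0444), a call lost under 15 of 25 alternatives. These values are those of its brightest probe. The other kept Cd93 probe, ILMN_1226329, also passed, at a log2 fold change of 0.87 (limma adjusted p = 0.0302). Thbd and Clec14a were above the limit on no array.

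Pdgfrb, the pericyte receptor, was read by 1 probe, ILMN_2903972. It was above the limit on 1 array, the NS control of set 2, at 22.0, and the other 8 arrays lay at 3.7 or below. No difference was detectable at this signal. Of the Pdgf ligands, receptors and relatives, 6 of 9 were tested and 0 passed, also at an unadjusted limma p under 0.05, with a median log2 fold change of 0.26 and a lowest value of 0.14. The ligands Pdgfa and Pdgfc were at 0.19 and 0.33, the receptor Pdgfra at 0.45 and the receptor-like Pdgfrl at 0.51. Pdgfra read 9.1 to 58.3 in knockdown cells and 18.6 to 39.2 in NS control cells, so its groups overlapped.

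Acta2 had 6 probes, 4 of them kept, and its signal was uneven within the knockdown group. ILMN_2693895 gave 1062, 285.6 and 213.0 on the first knockdown arrays of sets 1 to 3 and 1331, 213.9 and 267.7 on the second, against 435.6, 377.9 and 123.5 on the NS arrays. Both knockdown arrays of set 1 were therefore above the other 7 arrays, while the remaining 4 knockdown arrays lay within the control range. The log2 fold change was 0.60 (95% interval -0.90 to 2.09) and did not pass (adjusted p = 0.635). Without the 2 knockdown arrays of set 1 it was -0.17 (adjusted p = 0.853).

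The other 3 kept Acta2 probes had the same pattern. ILMN_2710354 read 131.7 and 146.9 on the knockdown arrays of set 1, 42.0 to 82.6 on the other knockdown arrays and 44.5 to 67.9 on the NS arrays. ILMN_2710353 read 100.1 and 67.8, then 23.5 to 37.7, against 21.9 to 37.3 on the NS arrays. ILMN_2923445 read 122.9 and 139.4, then 15.0 to 50.5, against 12.7 to 45.9 on the NS arrays. Their log2 fold changes were 0.44, 0.53 and 0.79 and none passed, with adjusted p of 0.543, 0.476 and 0.491. Without the knockdown arrays of set 1 they were 0.00, 0.07 and 0.13. Across the 9 arrays the 4 probes, all designed to 1 transcript, correlated with each other at r of 0.64 to 0.92. The last 2 Acta2 probes stayed at 4.1 or below.

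The pattern was not limited to Acta2. Of the smooth muscle and contractile genes it held for 7 of 15 (Cnn2, Myl9, Myl6, Tpm1, Cald1, Flna and Srf), where 10.9% of all tested probes had it. It held for 3 of 7 fibroblast and meninges markers (Dcn, Ptgds and Ogn), 2 of 16 mesenchymal structural genes, 4 of 15 other EMT transcription factors, 0 of 14 corepressors and 0 of 9 epithelial genes. Myl9, a myosin light chain, read 86.2 and 138.2 on the set 1 knockdown arrays and 25.2 to 49.5 on the others, and was above the limit on 0 of 3 NS arrays. Set against the limit, its knockdown level was at least 2.93-fold that of the controls, and the fit did not pass (adjusted p = 0.0709). Dcn, the matrix proteoglycan decorin, read 137.8 and 353.0, then 13.5 to 42.6, and was also above the limit on no NS array (adjusted p = 0.230). Both Myl9 and Dcn were thus kept for testing through their knockdown arrays alone.

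**Figure D4:**
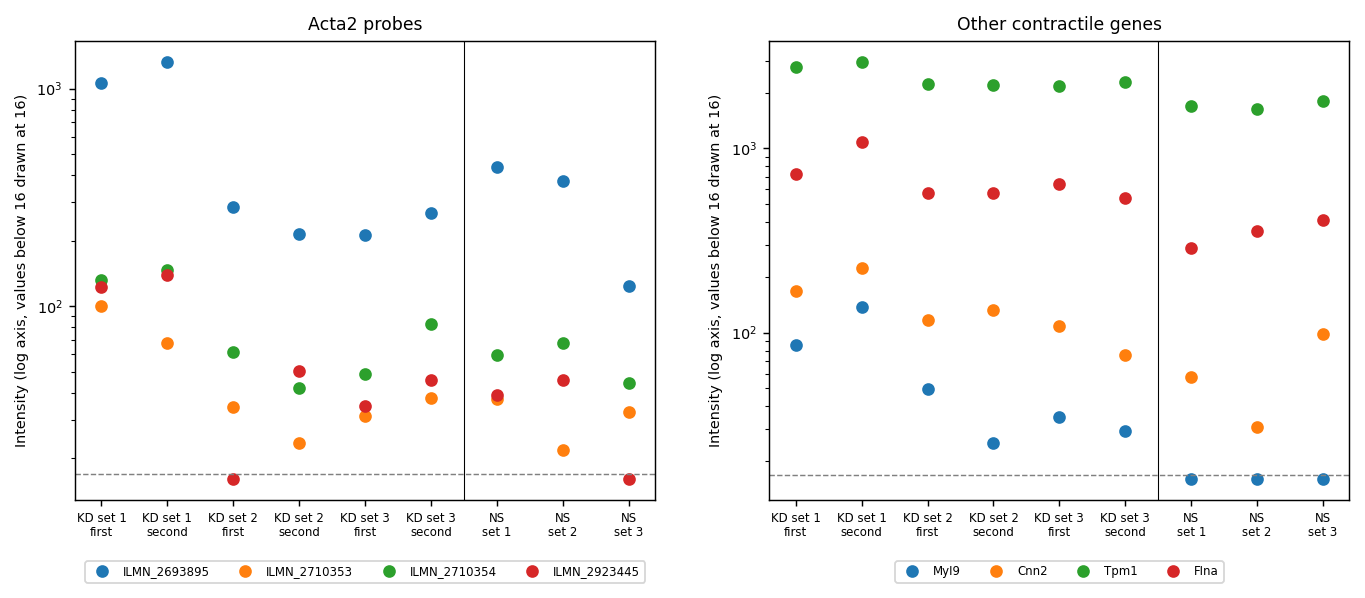
Intensity (log axis, values below 16 drawn at 16, limit of 16.9 dashed) of the 4 kept Acta2 probes on the left and of Myl9, Cnn2, Tpm1 and Flna on the right, with the 6 Med12 knockdown arrays by set left of the vertical line and the 3 NS control arrays right of it. Both knockdown arrays of set 1 are the highest for every gene and probe drawn, at 1062 and 1331 for ILMN_2693895. The genes on the right were drawn from the 7 of 15 tested contractile genes that had this pattern.

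Contractile genes as a list had 15 of 26 genes tested, 3 higher and 0 lower, at a median log2 fold change of 0.11. Over all genes by brightest probe, 5.41% were higher and 2.86% lower. Mylk, the kinase that phosphorylates myosin light chain, read 268.7 to 372.6 in knockdown cells and 151.7 to 171.4 in NS control cells (log2 fold change 1.02, SE 0.15, adjusted p = 0.00478). Smtn, the smooth muscle protein smoothelin, was at 0.97 (SE 0.22, adjusted p = 0.0266) and Flna, the actin crosslinker filamin A, at 0.95 (SE 0.23, adjusted p = 0.0345). The calls of Smtn and Flna were lost under 8 and 11 of 25 alternatives and that of Mylk under 1. The Mylk call is that of its brightest probe. Its other kept probes, ILMN_1219471 and ILMN_2662602, were dim and overlapped between the groups. They were at 0.97 and 0.63 and did not pass (limma adjusted p = 0.141 and 0.197). Of the other kept Smtn probes, ILMN_2955973 passed at 0.89 (limma adjusted p = 0.0154). ILMN_2621581 was at 0.59 and did not pass (limma adjusted p = 0.404). Without both knockdown arrays of set 1 Flna was at 0.74 (adjusted p = 0.0395) and Smtn at 0.93 (adjusted p = 0.0674). The other actins did not pass. Actb was at 0.11, and Actc1, the cardiac actin, was at -0.82 with 195.3 on the control array of set 1 and -1.0 and 22.3 on the other NS arrays. Tagln, Cnn1, Acta1 and Actg2 were above the limit on no array.

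Mesenchymal structural and secreted genes had 16 of 26 genes tested, 2 higher and 0 lower, at a median of 0.19. At an unadjusted limma p under 0.05 the counts were 2 higher and 3 lower, the lower genes being Vim, Tnc and Col6a2. Col5a1, a fibrillar collagen chain, read 271.3 to 495.1 in knockdown cells and 112.8 to 208.0 in NS control cells (log2 fold change 1.22, SE 0.23, adjusted p = 0.0135). Eln, which encodes elastin, read 71.4 to 93.8 and 16.4 to 55.9, with a log2 fold change of 1.45 (SE 0.31, adjusted p = 0.0232). The call of Col5a1 was lost under 4 of 25 alternatives and that of Eln under 6, among them leaving out the NS array of set 2 (adjusted p = 0.0627) or both knockdown arrays of set 1 (adjusted p = 0.0620). Vim, the intermediate filament of mesenchymal and neural progenitor cells, read 4982 to 8148 in knockdown cells and 9171 to 9755 in NS control cells, a log2 fold change of -0.40 that did not pass (adjusted p = 0.196) although the groups did not overlap. Tnc, a matrix glycoprotein of neural stem cell niches, was at -1.57 (adjusted p = 0.0816), also without overlap between the groups, and Fn1 at -0.01. Over the 15 lists together 106 genes were tested, with 9 higher and 3 lower. The share to set beside this count, and beside that of each list, is 5.41% higher and 2.86% lower over all genes by brightest probe.

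**Figure D5:**
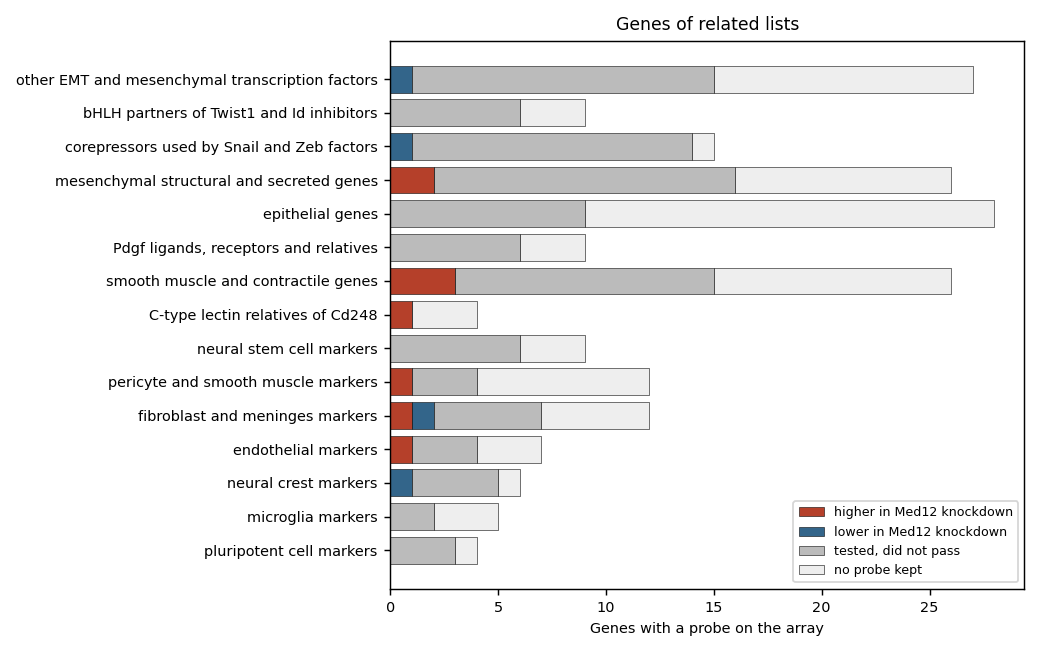
Number of genes with a probe on the array in each related list, split into higher in Med12 knockdown (red), lower (blue), tested without passing (grey) and no kept probe (pale). In the list of other EMT transcription factors 1 of 15 tested genes passed, and in the epithelial list 0 of 9.

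Cd248, Pdgfrb and Acta2 mark pericytes and smooth muscle as well as mesenchymal cells, and fewer cells of a type and less RNA per cell cannot be told apart in bulk samples. The labelled cell type was checked first. Of the neural stem cell markers Nes, Sox2, Fabp7, Olig2 and Slc1a3 were above the limit on all 9 arrays and Pax6, Sox1 and Msi1 had no kept probe. By limma 0 of 6 tested markers passed, and 1, Fabp7, was lower at an unadjusted p under 0.05. Of 12 pericyte and smooth muscle markers 4 were tested and 1, the receptor Notch3, was higher, at 244.4 to 541.7 in knockdown cells and 144.6 to 178.9 in NS control cells (log2 fold change 1.01, adjusted p = 0.0287). This call was lost under 9 of 25 alternatives, each single control array left out among them, and without both knockdown arrays of set 1 it was 0.80 (adjusted p = 0.0232). The other 3 tested markers, Mcam, Des and Cspg4, had log2 fold changes of -0.36, -0.34 and -0.04 that did not pass. The summed intensity of the list was 365 to 697 in knockdown cells and 307 to 327 in NS control cells; the 3 tested markers other than Notch3 summed to 107 to 131 in knockdown cells and 133 to 169 in NS control cells. The markers Rgs5, Kcnj8, Anpep, Vtn, Cnn1 and Tagln were above the limit on no array.

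Of 12 fibroblast and meninges markers 7 were tested, with 1 higher and 1 lower. The higher gene was Ogn, the matrix protein osteoglycin, which read 512.0, 111.0 and 146.3 on the first knockdown arrays and 688.3, 137.0 and 151.4 on the second, against 6.4, 20.4 and 4.2 on the NS arrays, of which 1 was above the limit (adjusted p = 0.00526). With the other 2 controls at the floor the size of its log2 fold change, 3.68, depends on that floor, and it was 2.23 with 50 added to all values and 4.76 with a floor of 1. The lower gene was Foxd1. The summed intensity of the list was 485 to 1698 in knockdown cells and 341 to 429.7 in NS control cells, and the 6 tested markers other than Ogn summed to 391 to 1032 in knockdown cells and 329 to 423 in NS control cells. Dcn, given above, and the transporter Slc6a13 were kept for testing through their knockdown arrays alone, with no NS array above the limit. For both, every knockdown array was above every control array, an order that this filter favours. Slc6a13 read 9.7 to 86.7 in knockdown cells and -7.6 to 4.5 in NS control cells, and neither passed (adjusted p = 0.230 for Dcn and 0.189 for Slc6a13). Col1a1, Lum, Thy1, Fap and Tbx18 were above the limit on no array.

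Of 7 endothelial markers 4 were tested and 1 was higher, the sialomucin Emcn. It read 227.9 to 753.3 in knockdown cells and 20.8 to 67.3 in NS control cells (log2 fold change 3.19, SE 0.46, adjusted p = 0.00394). The summed intensity was 339.5 to 894 in knockdown cells and 37.1 to 154 in NS control cells, in knockdown cells most of it from Emcn, and the 3 other tested markers summed to 54.0 to 132 and 33.2 to 62.8. Of these Tek was at 0.75, Cdh5 at 0.30 with no NS array above the limit, and Kdr at -0.20, and none passed. Tek was higher at an unadjusted limma p under 0.05. Cdh5 read 9.9 to 27.4 in knockdown cells, with 3 arrays above the limit, and -9.3 to 7.4 in NS control cells. Every knockdown array was above every control array for Cdh5, but this is an order of values near background. It was kept for testing through its knockdown arrays alone. The markers Tie1 and Cldn5 were above the limit on no array. Ogn and Emcn were highest on both knockdown arrays of set 1, as Acta2 was, and without those arrays their log2 fold changes, with the same floor for Ogn, were 2.97 (adjusted p = 0.000293) and 2.75 (adjusted p = 0.00968). Of 6 neural crest markers 5 were tested and Tfap2a was lower, at -0.56 (adjusted p = 0.0314), a call lost under 12 of 25 alternatives including each single control array left out. Of the other kept Tfap2a probes, ILMN_2913031 passed at -0.86 (limma adjusted p = 0.0151). ILMN_2726449 at -0.63 and ILMN_1257627 at -0.10 did not (limma adjusted p = 0.167 and 0.805). Ets1 was at 0.72, with every knockdown array above every control array, and did not pass (adjusted p = 0.0703). Sox10 was above the limit on no array. None of 2 tested microglia and 3 tested pluripotency markers passed, with Klf4 alone lower at an unadjusted limma p under 0.05. The part of other cell types in the Cd248, Foxc1 and Acta2 values was not tested.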

How the data were processed

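Total RNA of mNS-5 cells was hybridised to Illumina MouseWG-6 arrays. The authors scanned them on an iScan, and the deposited intensity values were background subtracted and quantile normalised between arrays in GenomeStudio (version not stated in these sources). Quantile normalisation gives every array the same distribution, so 18654 to 18690 probes per array exceeded the limit and 33.4% to 33.5% of values were below 0. A second deposited table, of signals before normalisation, has 18 value columns that match no sample label and was not used. Probes were named through GEO's platform annotation, in which 34885 had 1 gene symbol, 18 had several and 10378 had none.

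The background SD, 10.3, was taken from the values below 0 mirrored about 0, and the limit of 16.9 is its one-sided 0.05 quantile. Values below 16 were set to 16 and log2 transformed. The 20026 probes above the limit on at least 3 of 9 arrays were fitted with limma 3.58.1 (R 4.3.3; lmFit and eBayes, group as the 1 term), and p-values were adjusted by Benjamini-Hochberg over all of them. Genes of the lists were read from their brightest kept probe. The number of arrays limits the precision. In data simulated for this comparison over 20026 probes, 75% of 100 probes changed by 1.5 on the log2 scale and 83% of 100 changed by 2 were recovered, with 2 false calls. Recovery required both passing and a change of at least 2-fold. The simulated arrays were independent, and fewer probes were changed than passed in the real data. These shares are therefore not the power of the test by adjusted p alone.

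All member probes were named, with up to 4 genes per list that passed, relatives of the members, and the 3 genes most like each member past the test; other genes (among them Vim, Tnc, Fn1, Myl9, Dcn, Cdh1, Slc6a13, Ets1, Tek, Kdr, Cdh5 and the Tcf and Id genes) were named after their values were seen. The members and lists were chosen with earlier results of these data known. Promoters are from RefSeq (GRCm38.p6), which matched 6 of 10 members.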

Additional observations from a re-analysis of the deposited data

Results flagged for a closer look

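Of 26 results with all 6 knockdown arrays above the floor, 3 had 1 array far from the other 5 by Dixon's ratio, which chance alone gives in about 1 in 20. Foxd1 was lowest on the first knockdown array of set 3, at 29.4 with the others at 42.0 to 51.3. Pdgfc was lowest on the first knockdown array of set 2, at 99.9 with the others at 134.6 to 150.1. Actb was lowest on the first knockdown array of set 3, at 16393 with the others at 27086 to 31166.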

How the results depend on the processing

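The Cd248 and Foxc1 fold changes kept their sign under all 25 alternatives, at 1.17 to 2.19 and 0.81 to 1.43. Cd248 missed the threshold with the first knockdown series alone (adjusted p = 0.0584). Foxc1 missed it under 8, namely no filter on dim probes (0.113), the knockdown arrays of a set averaged (0.104), the first (0.176) or second (0.117) series alone, 3 single arrays left out and set 1 left out (0.0617). None of the 10 other member probes passed under any alternative in which it was fitted. The member count, 2 higher in the main analysis, was 1 without the filter, averaged, in the second series or without set 1, and 0 in the first series; list genes, 9 higher and 3 lower, were 3 and 1 without the filter, 3 and 0 averaged, 3 and 0 with the second series alone, and 1 and 0 with the first, with 0 lower without both set 1 knockdown arrays and 1 lower without set 1. These last 2 settings were chosen after seeing the data. Probes changed by 2-fold, 438 higher and 157 lower, were 224 and 61 with 50 added before log2, 201 and 76 without the filter, 248 and 104 with the second series alone, and 132 and 53 with the first; 261 were higher when averaged, 84 were lower by brightest probe, and 276 and 75 changed by the mean of the probes of a gene. Leaving out each array gave 275 to 475 higher and 99 to 185 lower probes, 1 to 2 members higher and 0 to 0 lower, and 4 to 9 list genes higher and 0 to 3 lower. With the set number as a replicate block, or as a random block, 5 list genes were lower and both members stayed past the test. The control and knockdown arrays of a set correlated at 0.02 to 0.27 in their deviations. A control array and the knockdown arrays of other sets correlated at -0.21 to 0.10. The 2 knockdown arrays of a set correlated at -0.07 to 0.22, and 4 of 6 knockdown arrays correlated best with their own set's control. The labels do not say what the samples of a set share beyond its number. The cause of these shifts was not tested. Signal limits Snai1, Snai2, Prrx1 and Pdgfrb, whose probes lie at or near background.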
